A study of Homo sapiens with 9 samples.

Results

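The genes of coagulation and fibrinolysis, 41 in number, were followed in HepG2, a human cell line from a hepatocellular carcinoma that makes many plasma proteins of the hepatocyte. They were chosen by gene symbol from textbook roles in clot formation, its inhibition, clot lysis, protease sensing and factor secretion, and each was read from its brightest probe set annotated to that symbol alone. Of the 41 genes, 39 had such a probe set, and 33 of them stood among the 13056 genes tested. RNA came from 3 groups of 3 arrays, which the labels name knockdown1, knockdown2 and control. In both knockdown groups, siRNAs (short RNAs that degrade a matching transcript) targeted HNF4alpha as well as HNF4gamma. No label states what sets knockdown1 apart from knockdown2, what the control cells received, or whether replicates were separate cultures, so p-values rest on a spread between arrays that could be technical.

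Coagulation runs through proteases that the liver secretes as inactive precursors. Tissue factor with factor VII starts the cascade, factor X with factor V turns prothrombin into thrombin, and thrombin cuts fibrinogen into fibrin. Antithrombin, heparin cofactor II, the protein C pathway and tissue factor pathway inhibitor hold the cascade back, and plasmin dissolves the clot. HNF4alpha is a nuclear receptor that drives many hepatocyte genes, and binding sites for it have been described in promoters of several clotting factors.

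Array values are MAS5 signals, linear brightness values of a probe set with no count behind them, here scaled so that every array had a median of 14.1. The authors' values had medians from 12.3 to 15.7 and 75th percentiles that differed by 1.06 times between arrays. HNF4G, which encodes HNF4gamma, gave signals of 44.9 to 47.9 in control, 14.4 to 23.5 in knockdown1 and 24.4 to 41.9 in knockdown2. It was lower than control in knockdown1 by a log2 difference of -1.28 (SE 0.28, limma adjusted p = 0.000538), while in knockdown2 the difference was -0.56 (SE 0.28, limma adjusted p = 0.142). No probe set was annotated to HNF4A alone, and its level was not analysed here. Hepatocyte markers were bright, with 10 of 11 measured and summed signals of 42939 to 51572 in control, 36930.5 to 44958 in knockdown1 and 40091 to 43667 in knockdown2. Of these 10, 3 were lower than control in knockdown1, and 3 were lower and 1 higher in knockdown2 (limma, adjusted p under 0.05). That is 30% and 40%, beside 33.3% and 27.6% of all tested genes. Of 7 endothelial markers 1, PECAM1, passed the filter on dim probe sets, and their summed signal was 84.7 to 91.6 in control, 85.4 to 121 in knockdown1 and 115 to 146.0 in knockdown2. Platelet markers (2 of 5 above the filter) summed to 33.8 to 51.6, 59.5 to 64.8 and 66.9 to 69.4 in the same order, and leukocyte markers (2 of 6) to 49.1 to 73.7, 25.6 to 46.4 and 34.4 to 47.5. The fibroblast and stellate list (4 of 6) gave 457 to 537, 796 to 1022 and 787 to 997, most of it ACTA2, with mean signals of 386, 799 and 761. No marker was listed at 0, and the part of these markers in the results was not tested. Since whole cultures of 1 cell line were measured, a change in the share of cells that express a gene and in the RNA per cell cannot be told apart.

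In knockdown1, 11 of the 33 tested genes fell and 2 rose against control (limma, adjusted p under 0.05 over all tested genes). That is 39.4% of the members, beside 33.3% of all tested genes. The falls made up 33.3% of the members beside 19.0% of all genes, and the rises 6.06% beside 14.3%. With the values as deposited the split was 11 lower and 4 higher, with quantile normalization 11 and 5, and with arrays centred on the tested genes 11 and 4. In that order 15, 16 and 15 of the 33 members were called, beside 43.9%, 44.3% and 43.7% of all tested genes. In knockdown2, 10 members fell and 6 rose, which is 48.5% of the members beside 27.6% of all genes, 30.3% lower beside 13.9% and 18.2% higher beside 13.7%. The 6 include TFPI, whose rise depended on which of its probe sets was read. The median log2 difference over the tested members was -0.26 in knockdown1 and -0.20 in knockdown2, beside -0.008 and 0.014 over all tested genes. Both comparisons use the same 3 control arrays. Against these controls, F7, F10, PROZ, SERPINC1, SERPINA10, SERPINF2, GGCX and LMAN1 were called lower in both knockdowns, and TFPI2 and F2R were called higher in both. These shares describe a list chosen with earlier results of these data known, and were not tested against the background.

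**Figure D1:**
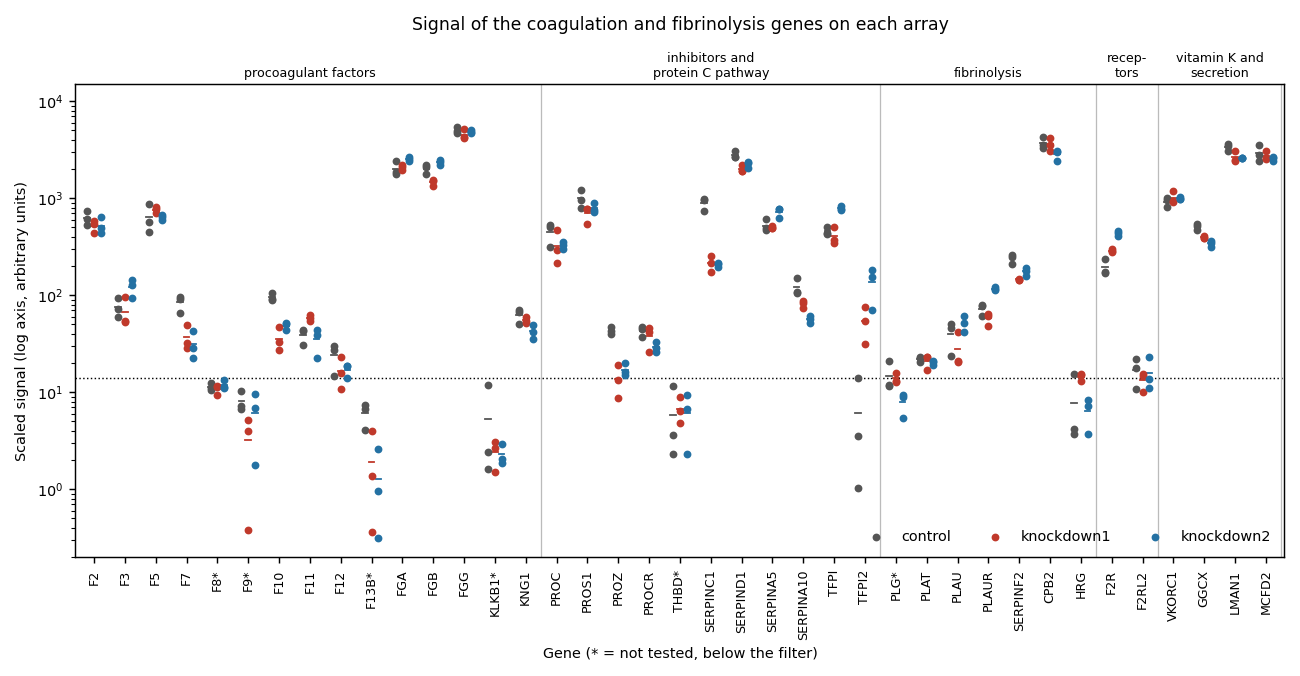
Scaled signal (log axis, arbitrary units) of the 39 measured genes, grouped by role, with 1 point per array, short bars at the mean of 3 arrays, and a dotted line at the common array median of 14.1. SERPINC1, F7, F10 and PROZ lie lower in both knockdowns, TFPI2 rises from near the bottom of the range, and the 6 starred genes stay at or below the median on most arrays.

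**Figure D2:**
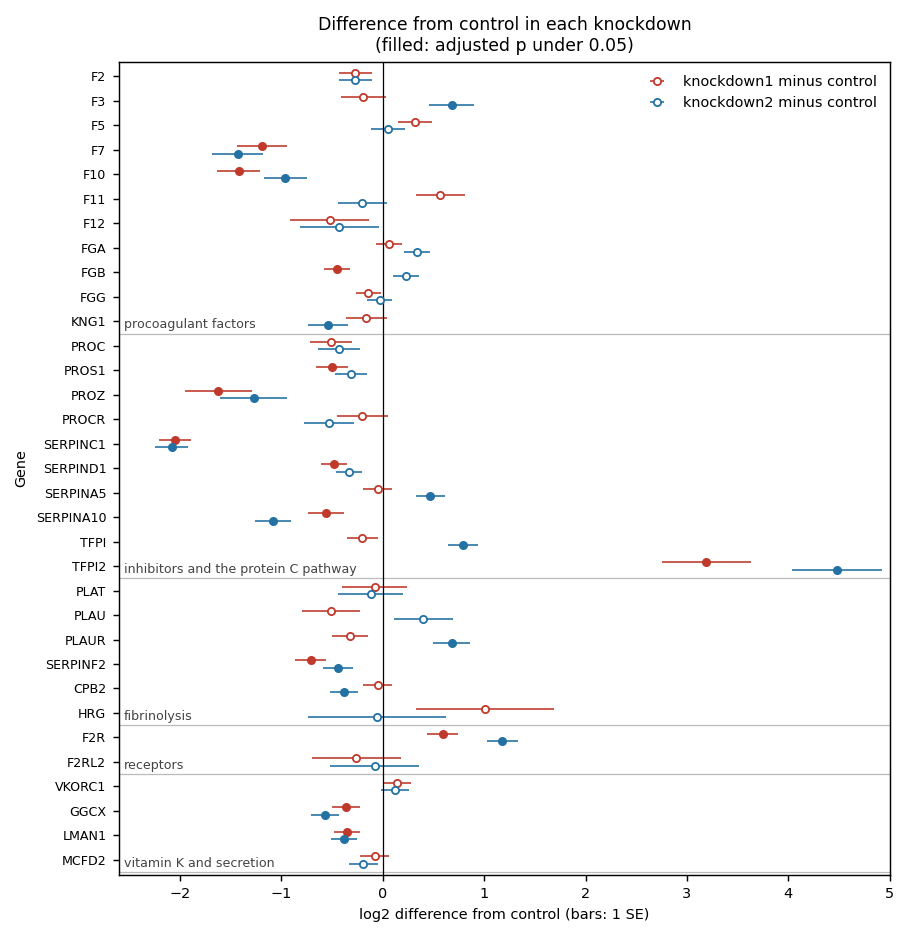
The log2 difference from control of the 33 tested genes in knockdown1 and knockdown2, with bars of 1 SE and filled points where the limma adjusted p was under 0.05. SERPINC1 lies near -2 in both knockdowns, TFPI2 is at 3.19 and 4.48, and F3, SERPINA5, TFPI and PLAUR are called higher in knockdown2 alone. The TFPI call depends on the probe set read.

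Among the 15 procoagulant factors, 11 were tested, and 3 fell and 0 rose in knockdown1, while 3 fell and 1 rose in knockdown2. The called shares were 27.3% and 36.4%, beside 33.3% and 27.6% of all tested genes. The falls shared by both knockdowns were F7 and F10. F7 encodes factor VII, the protease that tissue factor binds to start coagulation. Its signals were 91.4, 64.8 and 96.8 on the control arrays, 28.6, 48.8 and 32.5 in knockdown1 and 22.3, 42.5 and 28.5 in knockdown2. All 6 knockdown arrays lay below all 3 controls, with log2 differences of -1.19 (SE 0.25, limma adjusted p = 0.000409) in knockdown1 and -1.43 (SE 0.25, limma adjusted p = 6.58e-05) in knockdown2, falls of 2.28-fold and 2.69-fold. F10 encodes factor X, whose active form makes thrombin. Its signals were 90.1, 91.0 and 105 on the control arrays, 27.4, 32.6 and 46.8 in knockdown1 and 51.4, 43.8 and 50.3 in knockdown2. Again no knockdown array reached the controls, and F10 fell by 2.67-fold in knockdown1, a log2 difference of -1.42 (SE 0.21, limma adjusted p = 3.2e-06), and by 1.94-fold in knockdown2, a log2 difference of -0.96 (SE 0.21, limma adjusted p = 0.000721). Knockdown1 against knockdown2, F10 stood at -0.46 (SE 0.21, limma adjusted p = 0.1), with a 95% interval of -0.88 to -0.04, and was called without knockdown1 replicate 3 (-0.67, adjusted p = 0.0195).

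F7 and F10 are neighbouring genes on chromosome 13, and PROZ lies 1 annotated protein-coding gene farther on. PROZ encodes protein Z, a cofactor of the inhibitor of factor Xa. Its signals were 42.3, 40.2 and 46.8 on the control arrays, 19.1, 13.3 and 8.67 in knockdown1 and 16.3, 15.1 and 19.9 in knockdown2. All 6 knockdown arrays lay below the controls, at or near the common median, with log2 differences of -1.62 (SE 0.33, limma adjusted p = 0.000354) in knockdown1 and -1.27 (SE 0.33, limma adjusted p = 0.00469) in knockdown2. Because the knockdown signals of PROZ are dim, the size of its fall depends on the pseudocount, but the call was made under each of the 19 alternatives that tested it. SERPINA10, on another chromosome, encodes the protein Z-dependent protease inhibitor, the partner of protein Z. Its signals were 106, 108 and 152 on the control arrays, 87.2, 73.5 and 83.0 in knockdown1 and 51.6, 60.7 and 56.8 in knockdown2. The groups did not overlap, and the order was control, knockdown1 and then knockdown2. SERPINA10 fell by log2 -0.56 (SE 0.18, limma adjusted p = 0.0144) in knockdown1 and -1.08 (SE 0.18, limma adjusted p = 2.9e-05) in knockdown2. The knockdown1 call ended without control replicate 3 (-0.40, adjusted p = 0.0793) and without knockdown1 replicate 2 (-0.49, adjusted p = 0.0644).

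The start regions of F7, F10 and PROZ are shown because these neighbouring genes fell together, that of SERPIND1 because it carries the same letters, and that of TFPI2 because it rose most. Each is the RefSeq window from 250 bases before to 50 bases after the annotated start, build GRCh38.p14, read along the gene. Capitals mark CAAAGTNCA, a core of the HNF4 binding motif, on either strand, and in TFPI2 the AP-1 motif TGANTCA.
F7, chr13:113105541-113105840, strand +: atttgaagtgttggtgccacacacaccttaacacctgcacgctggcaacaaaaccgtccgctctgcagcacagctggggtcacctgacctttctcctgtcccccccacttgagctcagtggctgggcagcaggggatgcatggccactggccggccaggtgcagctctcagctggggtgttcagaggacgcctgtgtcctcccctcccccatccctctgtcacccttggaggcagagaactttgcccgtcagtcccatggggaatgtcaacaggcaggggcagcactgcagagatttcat
F10, chr13:113122549-113122848, strand +: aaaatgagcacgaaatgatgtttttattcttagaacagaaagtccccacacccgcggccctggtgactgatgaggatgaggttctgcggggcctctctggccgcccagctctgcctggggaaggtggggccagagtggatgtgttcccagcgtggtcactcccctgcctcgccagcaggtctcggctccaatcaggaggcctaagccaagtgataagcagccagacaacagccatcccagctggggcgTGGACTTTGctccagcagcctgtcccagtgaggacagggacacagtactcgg
PROZ, chr13:113158398-113158697, strand +: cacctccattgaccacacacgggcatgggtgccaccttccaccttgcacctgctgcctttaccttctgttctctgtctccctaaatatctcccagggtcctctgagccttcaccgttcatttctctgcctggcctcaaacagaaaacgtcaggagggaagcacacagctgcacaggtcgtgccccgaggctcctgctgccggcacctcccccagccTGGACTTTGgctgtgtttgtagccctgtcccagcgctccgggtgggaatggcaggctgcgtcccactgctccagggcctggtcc
SERPIND1, chr22:20773863-20774162, strand +: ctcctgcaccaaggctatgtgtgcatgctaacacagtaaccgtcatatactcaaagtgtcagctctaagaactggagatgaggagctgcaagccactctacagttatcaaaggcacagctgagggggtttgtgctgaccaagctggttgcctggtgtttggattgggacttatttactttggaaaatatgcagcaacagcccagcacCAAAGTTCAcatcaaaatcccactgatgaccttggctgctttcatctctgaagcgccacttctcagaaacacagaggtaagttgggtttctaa
TFPI2, chr7:93890704-93891003, strand -: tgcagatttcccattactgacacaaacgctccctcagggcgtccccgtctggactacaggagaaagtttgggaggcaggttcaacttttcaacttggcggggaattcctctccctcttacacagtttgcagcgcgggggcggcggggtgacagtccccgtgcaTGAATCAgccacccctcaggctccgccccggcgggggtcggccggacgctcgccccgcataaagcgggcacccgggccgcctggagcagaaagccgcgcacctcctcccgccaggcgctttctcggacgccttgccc
Windows were found for 36 members, 44 windows in all, and none for SERPINC1, SERPINF2, F2R, THBD and PLAT, which were therefore not searched. CAAAGTNCA stood in the windows of 4 members, F10, PROZ, SERPIND1 and F9, which is 11.1% of the 36, beside 1.36% of 27305 genes and 1.10% of 35116 windows. Read along the gene, the match began 2 bases before the start in F10, where it spans the start. It began 34 bases before the start in PROZ, 43 in SERPIND1 and 30 in F9. The letters stood on the opposite strand in F10, PROZ and F9 and on the same strand in SERPIND1. F10 and PROZ were called lower in both knockdowns, SERPIND1 was called lower in knockdown1 and not in knockdown2, and F9 was too dim to be tested. The stricter CAAAGTCCA was held by F10 and PROZ (5.56% of members beside 0.472% of genes), and the looser CAAAGNNCA, which includes both, also by SERPINA10 and VTN (6 members, 16.7% beside 6.44%). No match to these letters was found in the printed F7 window, which says nothing about binding there.

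Other motifs were searched in the same windows on both strands. The HNF1 letters GTTAATNAT were held by F13B, FGA and PLG (8.33% of members beside 0.963% of genes), of which FGA was tested and was not called against control in either knockdown. TGANTCA was held by F3, PLAUR, TFPI2 and F2RL2 (11.1% beside 9.37%). Of these, TFPI2 rose in both knockdowns, F3 and PLAUR rose in knockdown2 and were not called in knockdown1, and F2RL2 was called in neither. The share of members with TGANTCA is near that of all genes, and a link between these letters and the rises was not tested. The C/EBP letters TTNNGCAAT were held by CPB2 alone (2.78% beside 2.85%), the FOXA letters TGTTTAC by KNG1 and PROS1 (5.56% beside 4.19%) and the GC box GGGCGG by 14 members (38.9% beside 48.3%). A match is a description of letters and not a bound site.

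The fibrinogen genes FGA, FGB and FGG, which encode the 3 chains of the fibrin precursor and lie next to one another on chromosome 4, did not give the same values. FGB signals were 2182, 1768 and 2090.1 on the control arrays, 1519.7, 1332 and 1554 in knockdown1 and 2503, 2213 and 2344 in knockdown2. Each knockdown1 array lay below every other array, and knockdown2 lay above control. FGB fell in knockdown1, with a log2 difference of -0.45 (SE 0.13, limma adjusted p = 0.00749), and was at 0.23 (SE 0.13, limma adjusted p = 0.209) in knockdown2. Its knockdown1 call ended without control replicate 1 (-0.39, adjusted p = 0.0649) and without knockdown1 replicate 2 (-0.38, adjusted p = 0.0514). A further FGB probe set gave -0.68 (SE 0.13, adjusted p = 0.000736 in the limma fit of probe sets) in knockdown1 and 0.06 (SE 0.13, adjusted p = 0.82 in the limma fit of probe sets) in knockdown2. FGA was not called in either knockdown, at log2 differences of 0.06 (SE 0.13, limma adjusted p = 0.774) and 0.34 (SE 0.13, limma adjusted p = 0.0602). With the values as deposited FGA was called higher in knockdown2 (0.31, adjusted p = 0.00508), and likewise without control replicate 3 (0.48, adjusted p = 0.00298) or knockdown1 replicate 3 (0.34, adjusted p = 0.0406). FGB was also called higher in knockdown2 with the values as deposited (0.20, adjusted p = 0.0469). FGG gave -0.14 (SE 0.12, limma adjusted p = 0.403) and -0.03 (SE 0.12, limma adjusted p = 0.885), and its groups overlapped.

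F3 encodes tissue factor, the membrane receptor of factor VII. F3 signals were 60.0, 72.0 and 93.4 on the control arrays, 96.4, 52.3 and 54.0 in knockdown1 and 143, 128 and 93.4 in knockdown2. The groups overlapped, with knockdown2 replicate 3 level with the highest control array and below knockdown1 replicate 1. F3 rose in knockdown2 (log2 0.68 (SE 0.22, limma adjusted p = 0.0184)) and was at -0.19 (SE 0.22, limma adjusted p = 0.562) in knockdown1. The F3 rise no longer passed without control replicate 1 (0.54, adjusted p = 0.105), without knockdown2 replicate 1 (0.56, adjusted p = 0.0954) or without knockdown2 replicate 2 (0.64, adjusted p = 0.0569). KNG1, which encodes the kininogen of the contact system, gave signals of 69.8, 49.9 and 66.6 on the control arrays, 59.0, 53.9 and 51.9 in knockdown1 and 49.0, 35.6 and 42.1 in knockdown2. Its knockdown2 arrays lay just below the lowest control, a log2 difference of -0.54 (SE 0.20, limma adjusted p = 0.0477), and knockdown1 was at -0.16 (SE 0.20, limma adjusted p = 0.596). This call was lost under 10 of 20 alternatives, among them without control replicate 1 (-0.45, adjusted p = 0.187) and control replicate 3 (-0.48, adjusted p = 0.101), either of knockdown1 replicates 1 and 2 (-0.54, adjusted p = 0.0531 and -0.54, adjusted p = 0.0544) and either of knockdown2 replicates 2 and 3 (-0.42, adjusted p = 0.203 and -0.54, adjusted p = 0.101).

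F2, F5, F11 and F12 were not called against control. F2, the prothrombin gene, gave log2 differences of -0.27 (SE 0.16, limma adjusted p = 0.222) and -0.27 (SE 0.16, limma adjusted p = 0.246) in knockdown1 and knockdown2, with 95% intervals of -0.60 to 0.07 and -0.60 to 0.07. F5, the gene of the cofactor factor V, was at 0.32 (SE 0.17, limma adjusted p = 0.169) and 0.05 (SE 0.17, limma adjusted p = 0.86), with a control array, replicate 3, at 879.8 against 573 and 451 on the other control arrays. Without that array F5 was called higher in knockdown1 (0.58, adjusted p = 0.00119), and it was also called with the values as deposited (0.40, adjusted p = 0.0143). The factor XII gene F12 was dim (signals of 10.7 to 30.1), with log2 differences of -0.52 (SE 0.39, limma adjusted p = 0.324) and -0.43 (SE 0.39, limma adjusted p = 0.466). F11, the factor XI gene, is taken up with the differences between the knockdowns.

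Of the 11 inhibitors and genes of the protein C pathway, 10 were tested, and 5 fell and 1 rose in knockdown1, while 3 fell and 3 rose in knockdown2. In each knockdown 60% of them were called, beside 33.3% and 27.6% of all tested genes. SERPINC1, the antithrombin gene, had the lowest log2 differences of all tested members. Its signals were 974, 743 and 959.6 on the control arrays, 214, 175 and 256 in knockdown1 and 197, 217 and 209.9 in knockdown2. The highest knockdown array stood far below the lowest control array, and the falls were 4.14-fold and 4.24-fold, log2 differences of -2.05 (SE 0.16, limma adjusted p = 4.05e-11) and -2.08 (SE 0.16, limma adjusted p = 6.37e-11). A further SERPINC1 probe set gave -1.86 (SE 0.16, adjusted p = 2.54e-08 in the limma fit of probe sets) and -2.11 (SE 0.16, adjusted p = 1e-08 in the limma fit of probe sets). Knockdown1 against knockdown2, SERPINC1 stood at 0.03 (SE 0.16, limma adjusted p = 0.908), with a 95% interval of -0.29 to 0.36. SERPIND1 encodes heparin cofactor II, another inhibitor of thrombin. SERPIND1 signals were 2666, 2654 and 3077 on the control arrays, 1907, 1886 and 2211 in knockdown1 and 2067, 2282 and 2346 in knockdown2. All knockdown arrays lay below the controls, and SERPIND1 fell in knockdown1 (log2 -0.48 (SE 0.13, limma adjusted p = 0.00358)), while in knockdown2 the difference was -0.33 (SE 0.13, limma adjusted p = 0.0562). With the values as deposited it was called there too (-0.36, adjusted p = 0.000543), as it was without control replicate 2 (-0.36, adjusted p = 0.0354) and without knockdown1 replicate 3 (-0.33, adjusted p = 0.0259).

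In the protein C pathway, PROS1, the gene of the cofactor protein S, gave signals of 966, 787 and 1225 on the control arrays, 778, 545 and 775 in knockdown1 and 886, 759.6 and 728 in knockdown2. Knockdown1 lay below the lowest control on all 3 arrays and knockdown2 overlapped with control. PROS1 fell in knockdown1 (log2 -0.50 (SE 0.16, limma adjusted p = 0.0188)) and was at -0.31 (SE 0.16, limma adjusted p = 0.176) in knockdown2. The call ended without control replicate 3 (-0.34, adjusted p = 0.0913) or knockdown1 replicate 2 (-0.33, adjusted p = 0.158), and in knockdown2 PROS1 was called without control replicate 2 (-0.46, adjusted p = 0.0346). The knockdown1 call also ended without the variance trend (-0.50, adjusted p = 0.103). PROC, the protein C gene, was at -0.51 (SE 0.21, limma adjusted p = 0.0617) and -0.43 (SE 0.21, limma adjusted p = 0.14), with groups that overlapped. Without control replicate 2 it was called lower in both (-0.75, adjusted p = 0.00743 and -0.67, adjusted p = 0.02), and in knockdown1 also without knockdown1 replicate 3 (-0.81, adjusted p = 0.00436). PROCR, which encodes the endothelial protein C receptor, gave -0.20 (SE 0.25, limma adjusted p = 0.577) and -0.53 (SE 0.25, limma adjusted p = 0.118).

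TFPI2 encodes a matrix-bound inhibitor of plasmin and other serine proteases that is related to tissue factor pathway inhibitor. Its signals were 1.02, 3.52 and 13.9 on the control arrays, 31.1, 54.2 and 75.4 in knockdown1 and 70.5, 184 and 153 in knockdown2. Control lay at or below the common median of 14.1, and all 6 knockdown arrays lay above every control. TFPI2 passed the filter on dim probe sets only through its 6 knockdown arrays. The log2 differences were 3.19 (SE 0.44, limma adjusted p = 1.38e-06) in knockdown1 and 4.48 (SE 0.44, limma adjusted p = 6.71e-09) in knockdown2. With a pseudocount equal to the median they were 1.74 and 2.85, so the fold is uncertain while the calls were made under all 20 alternatives. A further TFPI2 probe set gave 2.60 (SE 0.47, adjusted p = 0.000303 in the limma fit of probe sets) and 4.29 (SE 0.47, adjusted p = 1.57e-06 in the limma fit of probe sets).

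TFPI encodes the inhibitor of tissue factor with factor VIIa. Signals of its brightest probe set were 508, 431 and 433 on the control arrays, 368, 341 and 502 in knockdown1 and 779, 827 and 758 in knockdown2. All knockdown2 arrays lay above all others, and knockdown1 overlapped with control. By this probe set TFPI rose in knockdown2 (log2 0.79 (SE 0.15, limma adjusted p = 0.00022)) and was at -0.20 (SE 0.15, limma adjusted p = 0.349) in knockdown1. The 4 further TFPI probe sets did not all follow. The one with the highest control signal gave mean signals of 632 in control, 362 in knockdown1 and 511 in knockdown2 (n = 3 each). It fell in knockdown1, at -0.79 (SE 0.14, adjusted p = 0.000189 in the limma fit of probe sets), and in knockdown2 it was at -0.30 (SE 0.14, adjusted p = 0.135 in the limma fit of probe sets). Another was also lower in knockdown1, at -0.49 (SE 0.14, adjusted p = 0.0146 in the limma fit of probe sets), and stood at 0.33 (SE 0.14, adjusted p = 0.106 in the limma fit of probe sets) in knockdown2. A further one rose in knockdown2, at 0.69 (SE 0.18, adjusted p = 0.00841 in the limma fit of probe sets), and was at -0.16 (SE 0.18, adjusted p = 0.564 in the limma fit of probe sets) in knockdown1. The dimmest was called in neither, at -0.13 (SE 0.26, adjusted p = 0.759 in the limma fit of probe sets) and 0.42 (SE 0.26, adjusted p = 0.274 in the limma fit of probe sets). Thus 2 of the 5 TFPI probe sets fell in knockdown1 and 2 of the 5 rose in knockdown2. With the mean of all its probe sets, TFPI was not called in knockdown2 (0.39, adjusted p = 0.0596). Lower values in knockdown1 than in knockdown2 were found for all 5 TFPI probe sets, from -0.98 to -0.49. Which transcripts each probe set reads was not tested.

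**Figure D3:**
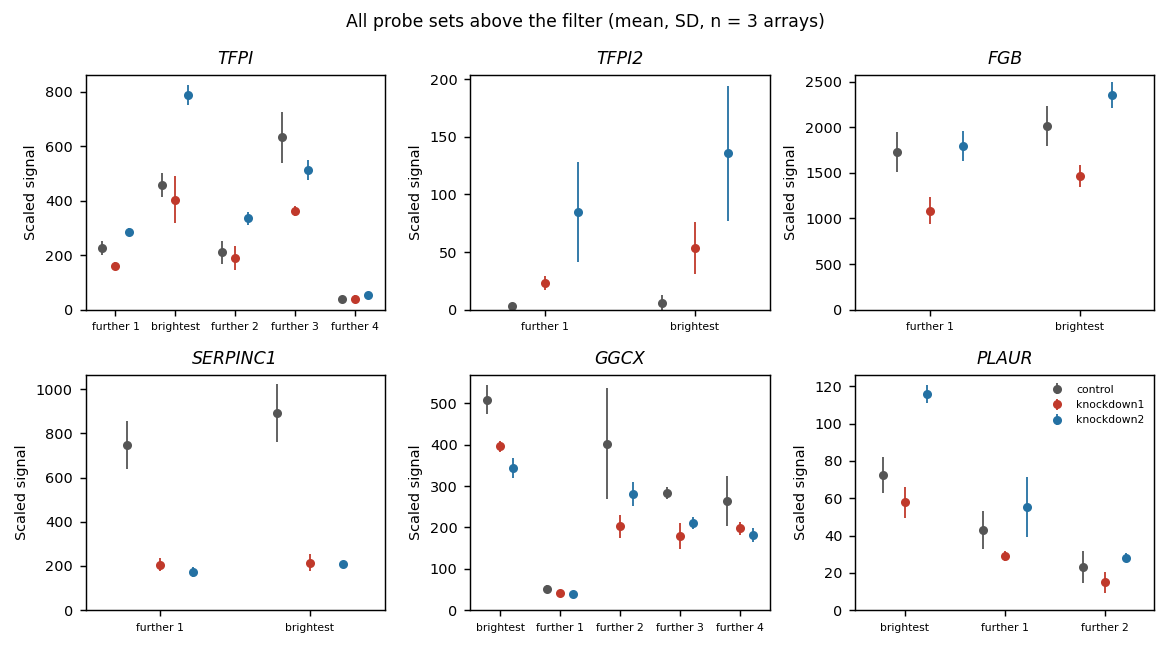
Mean scaled signal with SD (n = 3 arrays) of every probe set above the filter for TFPI, TFPI2, FGB, SERPINC1, GGCX and PLAUR. The SERPINC1, TFPI2 and FGB probe sets move alike, while 1 further TFPI probe set is highest in control.

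SERPINA5, the gene of the protein C inhibitor, which also acts on urokinase, gave signals of 466, 498 and 605 on the control arrays, 495, 495 and 515 in knockdown1 and 781, 629 and 765 in knockdown2. The knockdown2 arrays lay above all others. SERPINA5 rose in knockdown2 (log2 0.47 (SE 0.14, limma adjusted p = 0.0138)) and was at -0.05 (SE 0.14, limma adjusted p = 0.829) in knockdown1. The rise was no longer called without control replicate 1 (0.40, adjusted p = 0.105), without knockdown2 replicate 1 (0.42, adjusted p = 0.0909) or without knockdown2 replicate 3 (0.43, adjusted p = 0.0819).

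Of 8 fibrinolysis genes 6 were tested, and 1 fell in knockdown1, while 2 fell and 1 rose in knockdown2. The called shares were 16.7% and 50% of these few genes, beside 33.3% and 27.6% of all tested genes. SERPINF2 encodes alpha-2-antiplasmin, the main inhibitor of plasmin. SERPINF2 signals were 261, 209 and 248 on the control arrays, 145, 148 and 144 in knockdown1 and 192, 178 and 156 in knockdown2. The groups did not overlap, and knockdown1 was the lowest. SERPINF2 fell by log2 -0.71 (SE 0.15, limma adjusted p = 0.000541) in knockdown1 and -0.44 (SE 0.15, limma adjusted p = 0.0297) in knockdown2, where the call ended without control replicate 1 (-0.38, adjusted p = 0.145), knockdown2 replicate 2 (-0.46, adjusted p = 0.0762) or knockdown2 replicate 3 (-0.36, adjusted p = 0.177). CPB2 encodes TAFI, a carboxypeptidase that slows clot lysis. CPB2 signals were 3520.5, 3309 and 4259.9 on the control arrays, 3553, 3057 and 4131 in knockdown1 and 2439, 3014 and 3059 in knockdown2. The knockdown2 arrays lay below the lowest control, at a log2 difference of -0.38 (SE 0.14, limma adjusted p = 0.0397), and knockdown1 gave -0.05 (SE 0.14, limma adjusted p = 0.826). The CPB2 call was lost under 8 of 20 alternatives, among them without control replicate 1 or 3 (-0.41, adjusted p = 0.0744 and -0.27, adjusted p = 0.139), knockdown1 replicate 1 (-0.38, adjusted p = 0.0501) and knockdown2 replicate 1 or 2 (-0.28, adjusted p = 0.237 and -0.43, adjusted p = 0.0582).

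PLAUR encodes the urokinase receptor, which focuses plasminogen activation on the cell surface. PLAUR signals were 77.6, 78.5 and 61.2 on the control arrays, 48.5, 60.8 and 64.0 in knockdown1 and 112, 114 and 121 in knockdown2. All knockdown2 arrays lay above every other array. PLAUR rose in knockdown2 (log2 0.68 (SE 0.18, limma adjusted p = 0.00419)) and was at -0.32 (SE 0.18, limma adjusted p = 0.172) in knockdown1. The 2 dimmer PLAUR probe sets gave 0.34 (SE 0.24, adjusted p = 0.354 in the limma fit of probe sets) and 0.32 (SE 0.35, adjusted p = 0.574 in the limma fit of probe sets) in knockdown2, and the mean of all 3 was not called (0.45, adjusted p = 0.0776). PLAU, the urokinase gene, gave -0.51 (SE 0.29, limma adjusted p = 0.187) in knockdown1 and 0.40 (SE 0.29, limma adjusted p = 0.339) in knockdown2. PLAU was called lower in knockdown1 without control replicate 1 (-0.85, adjusted p = 0.0272) or knockdown1 replicate 3 (-0.84, adjusted p = 0.0381). PLAT, the tissue plasminogen activator gene, gave -0.08 (SE 0.32, limma adjusted p = 0.874) and -0.12 (SE 0.32, limma adjusted p = 0.827) at signals of 16.9 to 23.2. HRG, a plasma glycoprotein gene that stood above the filter only on 3 arrays, gave 1.01 (SE 0.68, limma adjusted p = 0.27) and -0.06 (SE 0.68, limma adjusted p = 0.965).

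Of the 3 protease-activated receptor genes listed, F2R and F2RL2 were measured. F2R encodes PAR1, the receptor that thrombin cleaves on many cells. F2R signals were 173, 170.2 and 236 on the control arrays, 279.7, 297 and 286 in knockdown1 and 437, 408 and 462 in knockdown2. The groups did not overlap and stood in the order control, knockdown1, knockdown2. F2R rose by 1.5-fold in knockdown1, a log2 difference of 0.59 (SE 0.15, limma adjusted p = 0.00321), and by 2.27-fold in knockdown2, a log2 difference of 1.18 (SE 0.15, limma adjusted p = 7.5e-07). These values are uncertain, since the brightest F2R probe set is of a kind that can pick up similar sequences. A dimmer F2R probe set was not called, at 0.46 (SE 0.24, adjusted p = 0.183 in the limma fit of probe sets) and 0.43 (SE 0.24, adjusted p = 0.229 in the limma fit of probe sets). Between the knockdowns this dimmer probe set stood at 0.02 (SE 0.24, adjusted p = 0.965 in the limma fit of probe sets). F2RL2, the PAR3 gene next to F2R on chromosome 5, had signals near the common median (10.1 to 22.8) and gave -0.26 (SE 0.44, limma adjusted p = 0.697) and -0.08 (SE 0.44, limma adjusted p = 0.926).

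Among genes of the vitamin K cycle and of factor secretion, 2 of 4 fell in each knockdown and none rose. That is 50% of only 4 genes, beside 33.3% and 27.6% of all tested genes called in knockdown1 and knockdown2. GGCX encodes the gamma-carboxylase that modifies prothrombin, factors VII, IX and X and proteins C, S and Z. GGCX signals were 510.5, 473 and 543 on the control arrays, 389.7, 388 and 411 in knockdown1 and 317, 364 and 349 in knockdown2. All knockdown arrays lay below the controls. GGCX fell by log2 -0.36 (SE 0.14, limma adjusted p = 0.0486) in knockdown1 and -0.57 (SE 0.14, limma adjusted p = 0.00268) in knockdown2. The knockdown1 call ended under 11 of 20 alternatives, with adjusted p from 0.0501 to 0.143, and these included leaving out control replicate 1 or 3 or any 1 of the 6 knockdown arrays (0.0556 to 0.131). Of 4 further GGCX probe sets, 2 were called lower in knockdown1, at -0.94 (SE 0.19, adjusted p = 0.00102 in the limma fit of probe sets) and -0.66 (SE 0.15, adjusted p = 0.00204 in the limma fit of probe sets), and 1 in knockdown2, at -0.52 (SE 0.16, adjusted p = 0.027 in the limma fit of probe sets). VKORC1, which encodes the vitamin K epoxide reductase blocked by warfarin, was at 0.14 (SE 0.14, limma adjusted p = 0.505) and 0.12 (SE 0.14, limma adjusted p = 0.574), with 95% intervals of -0.15 to 0.42 and -0.16 to 0.41, and was called higher in knockdown1 with the values as deposited (0.22, adjusted p = 0.0204).

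LMAN1 and MCFD2 encode the cargo receptor that carries factors V and VIII out of the endoplasmic reticulum. LMAN1 signals were 3437, 3067 and 3615 on the control arrays, 2472, 2427 and 3041 in knockdown1 and 2607, 2585 and 2574 in knockdown2. Every knockdown array lay below the lowest control. LMAN1 was called lower at log2 -0.35 (SE 0.13, limma adjusted p = 0.0306) and -0.38 (SE 0.13, limma adjusted p = 0.0248), although the calls ended under 10 and 8 of 20 alternatives. In knockdown1 these included leaving out control replicate 1 (-0.34, adjusted p = 0.109) or 3 (-0.30, adjusted p = 0.0641), knockdown1 replicate 1 (-0.31, adjusted p = 0.125) or 2 (-0.30, adjusted p = 0.132), or knockdown2 replicate 2 (-0.35, adjusted p = 0.0511) or 3 (-0.35, adjusted p = 0.0526). In knockdown2 they included leaving out control replicate 1 (-0.36, adjusted p = 0.0984) or 3 (-0.33, adjusted p = 0.0505) or any 1 of the knockdown2 arrays (-0.38, adjusted p = 0.0756, then -0.38, adjusted p = 0.0832 and -0.37, adjusted p = 0.0889). Neither of the 2 dimmer LMAN1 probe sets was called, at -0.36 (SE 0.15, adjusted p = 0.0829 in the limma fit of probe sets) and -0.04 (SE 0.15, adjusted p = 0.86 in the limma fit of probe sets) in knockdown1, and at -0.20 (SE 0.15, adjusted p = 0.387 in the limma fit of probe sets) and -0.05 (SE 0.15, adjusted p = 0.856 in the limma fit of probe sets) in knockdown2. MCFD2 was not called, at -0.08 (SE 0.14, limma adjusted p = 0.703) and -0.19 (SE 0.14, limma adjusted p = 0.355), although it was in knockdown2 with the values as deposited (-0.22, adjusted p = 0.0183).

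The direct comparison of the knockdowns asks which genes answered unequally. Between them, 10 of 33 members differed, 30.3% beside 26.6% of all tested genes, with 8 lower in knockdown1 (24.2% beside 16.1%) and 2 higher (6.06% beside 10.5%). The split depended on the scaling, with 6 lower and 7 higher for the values as deposited, 7 and 7 after quantile normalization and 8 and 4 with arrays centred on the tested genes. In that order 13, 14 and 12 members were called, beside 37.6%, 37.7% and 36.5% of all tested genes. In this comparison the median over all tested genes was 0.08 for the deposited values and -0.03 after scaling. PLAUR (log2 -1.0 (SE 0.18, limma adjusted p = 7.05e-05)), TFPI (-0.98 (SE 0.15, limma adjusted p = 1.15e-05)) and FGB (-0.68 (SE 0.13, limma adjusted p = 0.00019)) were lower in knockdown1 under every one of the 20 alternatives. F3 (-0.87 (SE 0.22, limma adjusted p = 0.00321)), F2R (-0.60 (SE 0.15, limma adjusted p = 0.00378)) and SERPINA5 (-0.52 (SE 0.14, limma adjusted p = 0.007)) were lower too. F3 lost its call without the variance trend (-0.87, adjusted p = 0.0543), F2R with the mean of its probe sets (-0.29, adjusted p = 0.21) and SERPINA5 without knockdown2 replicate 1 (-0.47, adjusted p = 0.0566) or 3 (-0.48, adjusted p = 0.0502).

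TFPI2 and PLAU were lower in knockdown1 with less certain values. TFPI2 was at -1.30 (SE 0.44, limma adjusted p = 0.0276) and lost its call under 9 alternatives, the values as deposited among them (-1.18, adjusted p = 0.0917), and without knockdown1 replicate 1 (-0.96, adjusted p = 0.157), knockdown2 replicate 2 (-1.03, adjusted p = 0.131) or knockdown2 replicate 3 (-1.15, adjusted p = 0.0727). The further TFPI2 probe set gave -1.69 (SE 0.47, adjusted p = 0.0132 in the limma fit of probe sets). In that fit the brightest was not called (-1.30, adjusted p = 0.0622). PLAU signals were 23.5, 45.6 and 50.9 on the control arrays, 20.3, 20.8 and 42.2 in knockdown1 and 41.9, 60.7 and 51.5 in knockdown2. Knockdown1 replicate 3 lay inside the range of the other groups. PLAU was at -0.92 (SE 0.29, limma adjusted p = 0.0188) and lost its call under 6 alternatives, the values as deposited among them (-0.80, adjusted p = 0.0504), and without knockdown1 replicate 1 (-0.74, adjusted p = 0.0924), knockdown1 replicate 2 (-0.76, adjusted p = 0.0767) or knockdown2 replicate 2 (-0.79, adjusted p = 0.0835). The further PLAU probe set gave -1.49 (SE 0.48, adjusted p = 0.0318 in the limma fit of probe sets).

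F11 and SERPINA10 were higher in knockdown1 than in knockdown2. F11 encodes factor XI, which amplifies thrombin formation. F11 signals were 44.2, 42.5 and 31.0 on the control arrays, 54.4, 58.0 and 62.0 in knockdown1 and 43.8, 22.4 and 38.6 in knockdown2. Knockdown1 was the highest group, and knockdown2 overlapped with control. F11 gave 0.76 (SE 0.24, limma adjusted p = 0.0184) between the knockdowns, and was not called against control at 0.57 (SE 0.24, limma adjusted p = 0.072) and -0.20 (SE 0.24, limma adjusted p = 0.607). The F11 difference was no longer called without knockdown1 replicate 3 (0.72, adjusted p = 0.0658) or without knockdown2 replicate 2 (0.48, adjusted p = 0.175), and without the latter F11 was called higher in knockdown1 than in control (0.57, adjusted p = 0.0464). SERPINA10 gave 0.52 (SE 0.18, limma adjusted p = 0.0306) and lost its call without knockdown1 replicate 1 (0.46, adjusted p = 0.106) or 3 (0.50, adjusted p = 0.0713) and without knockdown2 replicate 1 (0.46, adjusted p = 0.117) or 3 (0.52, adjusted p = 0.0685). F11 and SERPINA10 also lost their calls without the filter on dim probe sets (limma adjusted p = 0.0798 and 0.0776). The same held without the variance trend (limma adjusted p = 0.0553 and 0.0567). CPB2 was not called, at 0.33 (SE 0.14, limma adjusted p = 0.077), but was with the values as deposited (0.45, adjusted p = 0.0006), without control replicate 3 (0.33, adjusted p = 0.041) and without knockdown1 replicate 2 (0.44, adjusted p = 0.0331).

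**Figure D4:**
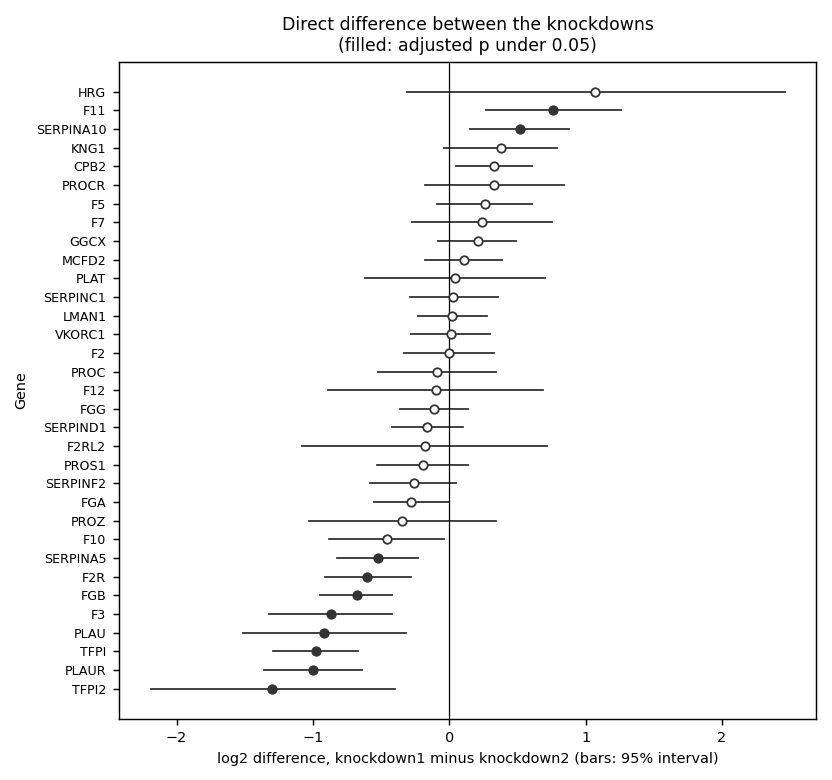
The log2 difference of knockdown1 minus knockdown2 for the 33 tested genes, with 95% intervals and filled points where the limma adjusted p was under 0.05. TFPI2, PLAUR, TFPI, PLAU and F3 lie lowest, F11 and SERPINA10 are called higher, and SERPINC1 is at 0.03.

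In all, 21 of the 33 tested members (63.6%) were called in at least 1 of the 3 comparisons, beside 48.7% of all tested genes. The other 12 were F2, F5, F12, FGA, FGG, PROC, PROCR, PLAT, HRG, F2RL2, VKORC1 and MCFD2, with log2 differences of -0.52 to 1.01 in knockdown1 and -0.53 to 0.34 in knockdown2. Their median SE was 0.19, so changes of the size seen in GGCX or LMAN1 may go uncalled. Between the knockdowns a further probe set was called for F5 (0.57, adjusted p = 0.0464 in the limma fit of probe sets) and for MCFD2 (0.40, adjusted p = 0.0331 in that fit). Another of each was not, at 0.11 and -0.17. With the values as deposited both genes were called between the knockdowns (limma, 0.38, adjusted p = 0.0228 and 0.23, adjusted p = 0.0148). The SE also depended on the scaling. With the values as deposited it fell from 0.13 to 0.08 for FGA and from 0.14 to 0.07 for MCFD2 in knockdown2. For VKORC1 in knockdown1 it fell from 0.14 to 0.07, and these 3 genes were called there. F8, F9, F13B, KLKB1, THBD and PLG were too dim to be tested, with signals from 0.311 to 20.9 over all arrays, and no direction is drawn for them. VTN and F2RL1 had no probe set annotated to them alone.

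Other genes of haemostasis were counted from a list of 43, of which 35 were tested. In knockdown1 9 fell and 3 rose (34.3% called), and in knockdown2 9 fell and 4 rose (37.1% called), beside the 33.3% and 27.6% of all genes. The 6 called genes with the largest difference in either knockdown were ASGR1, CPN2, ANXA2, THBS1, CPN1 and GP1BA. ASGR1, part of the receptor that clears desialylated plasma glycoproteins, was at -1.71 (SE 0.14, limma adjusted p = 2.55e-10) in knockdown1 and -2.51 (SE 0.14, limma adjusted p = 2.77e-13) in knockdown2. CPN1 and CPN2 encode the subunits of plasma carboxypeptidase N, which cuts C-terminal basic residues from kinins. CPN1 gave -2.20 (SE 0.20, limma adjusted p = 6.86e-10) and -1.53 (SE 0.20, limma adjusted p = 7.61e-07), and CPN2 gave -2.41 (SE 0.19, limma adjusted p = 6.05e-11) and -2.31 (SE 0.19, limma adjusted p = 2.71e-10). ANXA2, a cell-surface receptor for plasminogen and its activator, gave -1.42 (SE 0.15, limma adjusted p = 1.02e-08) and -2.38 (SE 0.15, limma adjusted p = 1.04e-12), values that are uncertain since the probe set can pick up close copies of ANXA2. THBS1, the thrombospondin gene, rose by 2.12 (SE 0.20, limma adjusted p = 1.82e-09) and 2.24 (SE 0.20, limma adjusted p = 1.2e-09). GP1BA, a platelet receptor subunit, was dim in control at 15.1 ± 3.24 (SD, n = 3) and gave 0.90 (SE 0.28, limma adjusted p = 0.0146) and 1.30 (SE 0.28, limma adjusted p = 0.000892).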

How the data were processed

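RNA of HepG2 cells was hybridised to 9 Affymetrix arrays in 3 groups of 3, taken from the sample titles. The deposited intensity values are linear MAS5 signals, made by the authors, per the submitters' processing notes, with no version named there. The mean of each array, trimmed by 2% at each end, was 100.0. Each array was multiplied by 0.898 to 1.15 to bring its median to 14.1, and values were taken as log2(signal + 1.41), which understates the change of dim genes. Of 54675 probe sets, 41091 had 1 gene symbol in the platform annotation, 1801 had several, 11721 had none and 62 were controls. Probe sets with 1 symbol were kept if above their array's median on at least 3 of the 9 arrays (24565), and the brightest by mean log2 value stood for each of 13056 genes.

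All arrays entered 1 fit of limma 3.58.1 in R 4.3.3 (two-sided; eBayes, variance trend on). P-values were adjusted by Benjamini-Hochberg across the 13056 genes, with a threshold of 0.05. Values for further probe sets come from the same fit over all probe sets above the filter. All 41 members are accounted for, those called with a value for every array, and of the other haemostasis genes up to 6 called with the largest change in either knockdown are named. Members and lists were chosen with earlier results of these data known. The fit was tested on simulated data, for knockdown1 against control. It called 19.4% of true 1.5-fold changes, 58.2% of 2-fold changes and 92.4% of 4-fold changes, and 0.0311% of unchanged genes. Small changes are thus often missed. No 2 arrays shared more than 1.37% of values. Alternatives changed the scaling, the pseudocount, the filter, the probe set rule, the variance trend, the replicate block, the groups fitted and the arrays. The number of arrays limits the precision, which also changed with the scaling. Promoter windows came from RefSeq, build GRCh38.p14.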

Additional observations from a re-analysis of the deposited data

Results flagged for a closer look

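10 members differed between the knockdowns by a direct test (limma, adjusted p under 0.05 over all tested genes), and are listed here for that reason. Each value is the log2 difference of knockdown1 minus knockdown2. It was -0.87 for F3, 0.76 for F11, -0.68 for FGB, -0.52 for SERPINA5 and 0.52 for SERPINA10. It was -0.98 for TFPI, -1.30 for TFPI2, -0.92 for PLAU, -1.0 for PLAUR and -0.60 for F2R. The labels do not say how the knockdowns differ, and no cause was tested.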

How the results depend on the processing

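Results were recomputed under 20 alternatives. No called difference of a member changed direction under any of them. Of 13 members called in knockdown1 against control, 8 were called under every alternative that tested them, and of 16 in knockdown2, 8 were. Of 10 called between the knockdowns, 3 were. The count of called members stayed within 1.5 times of 13, 16 and 10 with 2 exceptions other than single arrays, 6 between the knockdowns without the filter on dim probe sets and 5 without the variance trend. Leaving out 1 array at a time gave 8 to 14 called members in knockdown1, 10 to 19 in knockdown2 and 7 to 12 between the knockdowns. The lowest counts came without knockdown1 replicate 2 (8 in knockdown1) and without control replicate 1 (10 in knockdown2), and the cause was not tested. With the replicate number as a block, 14, 19 and 11 members were called, among them all of the 13, 16 and 10. Over all tested genes the block called 38.3%, 32.7% and 31.8%, against 33.3%, 27.6% and 26.6% without it. Same-numbered arrays of different groups had deviations that correlated at -0.02 to 0.13. Arrays with different numbers were not compared in this way, so these values cannot decide whether the numbers are pairs. The main fit used no block. Over all genes, the values as deposited called 5733, 4882 and 4907 in the 3 comparisons, against 4351, 3608 and 3473. Fold changes of TFPI2, PROZ, F12, HRG and F2RL2 are the least certain, since they rest on signals near the array median.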
